A study of Homo sapiens with 2 samples.

Results

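Mitochondria keep their proteins folded with a set of nuclear-encoded chaperones and proteases, and 10 genes of this quality control system and of the hormones released when it is strained were described here in ARP1-SRD5A1-KD cells, untreated or given doxycycline (Dox). They were chosen by gene symbol: the matrix chaperones HSPA9, HSPD1 and HSPE1, the matrix protease genes LONP1, CLPP and CLPX, the inner membrane proteases OMA1 and YME1L1, and the secreted factors GDF15 and FGF21. All 10 were among the 57485 genes listed, and 9 of them reached 1 FPKM (FPKM counts fragments relative to transcript length and library total) in at least 1 library, as did 14859 of all genes. GDF15 did not.

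ARP1 is a human multiple myeloma cell line. Both libraries came from ARP1 cells carrying a lentiviral short hairpin RNA against SRD5A1, a steroid reductase, in a vector that makes the hairpin when Dox is present. One library was from untreated cells and the other from cells treated with Dox, and each condition had 1 library, so no replicate error could be computed and no p-value is given. The genotype label of the library with Dox names SRD5A2, whereas its title and the series' design name SRD5A1. Cells treated with Dox but lacking the hairpin were not analysed here, so an effect of the drug on mitochondria and an effect of the hairpin cannot be told apart. The dose and duration of Dox for these libraries are not given in the sources used here.

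Most mitochondrial proteins are made in the cytosol, threaded through import channels and folded in the matrix, where HSPA9 (mortalin) pulls the chain in and the HSPD1 chamber with its HSPE1 lid folds it. LONP1 and the CLPXP complex degrade matrix proteins that are damaged or misfolded, while OMA1 and YME1L1 cut inner membrane proteins such as the fusion factor OPA1. Imbalance between proteins of nuclear and mitochondrial origin is known to induce the stress factors ATF4 and DDIT3 and the mitokines GDF15 and FGF21, and doxycycline is known to inhibit the mitochondrial ribosome.

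The libraries held 45918570 counts without Dox and 48728927 with Dox, and 3 counts corresponded to 0.0653 and 0.0616 CPM (counts relative to the library total). Plasma cell markers were present in both libraries (8 of 8 at 1 FPKM or more, summed level 2398 FPKM without and 2305 FPKM with Dox). Of the 8, 2 were past 2-fold higher and 0 lower, with log2 ratios from -0.54 to 1.40. With the trimmed mean factors of edgeR, 1 was higher. Of the 14859 genes that reached 1 FPKM, 17.0% were past 2-fold higher and 6.41% lower, so these markers do not stand apart by their count. None of 5 T cell markers reached 1 FPKM (highest 0.31 FPKM), 1 of 5 monocyte markers did (highest 1.48 FPKM), and so did 2 of 5 B cell markers (highest 2.11 FPKM), with CD22 at 0 in both. Of 6 epithelial and stromal markers 3 reached it, the highest being KRT18 at 6 FPKM without and 1.44 FPKM with Dox. SRD5A1 itself went against the label: it had 1375 counts (13.04 FPKM) without and 3014 counts (25.88 FPKM) with Dox, a log2 ratio of 0.98. The condition is therefore given below as the library labelled with Dox. Whether the 2 libraries were exchanged was not tested, and an exchange would reverse the direction of every ratio given here.

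Ratios are the library labelled with Dox over the library labelled without Dox, on the log2(FPKM + 0.1) scale. A gene was called when its ratio was past 2-fold. Of the 9 genes tested, 3 were called. LONP1 and FGF21 were higher and HSPE1 was lower with Dox. FGF21 passed the 1 FPKM filter only through the library in which it was high, so its call rests on that filter. Without FGF21, LONP1 alone was higher and HSPE1 alone lower. Among all 14859 genes tested, 23.4% were past 2-fold, 17.0% higher and 6.41% lower, so 2 higher and 1 lower of 9 is a share near the background. The median ratio of the 9 genes was 0.07, against 0.15 for all genes tested. The split of all called genes depended on the scaling: 72.6% of them were higher on FPKM, and 57.7% were with the trimmed mean (TMM) factors of edgeR, which moved the median of all genes by -0.19. In bulk RNA, fewer cells expressing a gene and less of its RNA per cell cannot be told apart.

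**Figure D1:**
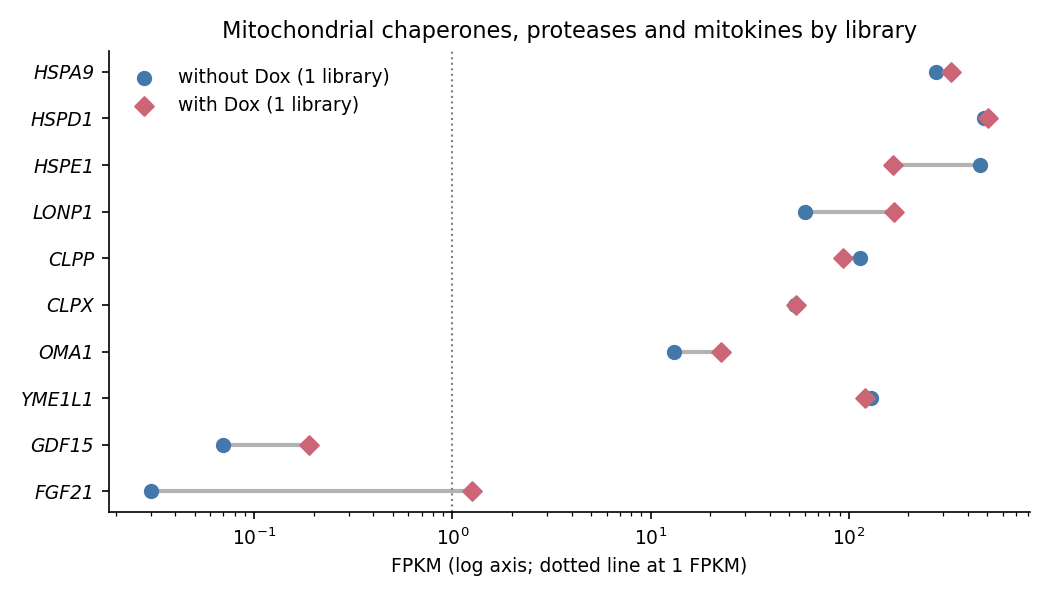
Level of each of the 10 genes in FPKM (log axis) in the library without Dox (circles) and in the library labelled with Dox (diamonds), 1 library each, with the dotted line at 1 FPKM. LONP1 and HSPE1 stand apart by their shift among the abundant genes, and GDF15 and FGF21 lie far to the left of the others.

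Sequence near the starts of FGF21 and HSPD1 is shown because both windows held a match to an element bound by stress factors, because FGF21 had the highest ratio of the 10 genes, and because HSPD1 and HSPE1 start from the same region. RefSeq promoter windows of 250 bases before to 50 after a start (GRCh38.p14) were found for 8 of the 10 genes, in 10 windows. They were searched on both strands for TGATGNAA, the core of the element bound by ATF4 with C/EBP proteins, and for GAANNTTC and TTCNNGAA, paired units of the element bound by heat shock factors. Capitals mark the matches, and adjoining matches may overlap.
FGF21, plus strand, chr19:48755391-48755523: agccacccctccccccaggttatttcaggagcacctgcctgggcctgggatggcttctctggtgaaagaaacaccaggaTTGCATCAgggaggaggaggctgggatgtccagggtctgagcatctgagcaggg
HSPD1, minus strand, chr2:197500061-197500090: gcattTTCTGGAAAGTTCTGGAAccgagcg

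In FGF21 the capitals are TGATGNAA read on the opposite strand, 54 to 47 bases before the start, and 3.62% of 35116 windows of all genes held this motif. In HSPD1 they are TTCNNGAA, GAANNTTC and TTCNNGAA again, overlapping one another, 245 to 228 bases before one of its annotated starts. GAANNTTC was in 6.77% and TTCNNGAA in 7.74% of all windows. The HSPD1 stretch lies within annotated exons of both HSPD1 and HSPE1, which run on opposite strands, and the RefSeq start of HSPE1 lies 105 or 539 bases from the starts of HSPD1. HSPA9 held TTCNNGAA across its start. The windows of LONP1, CLPX, OMA1, HSPE1 and GDF15, and the other window of HSPD1, held none of these letters, which describes these windows only. The HSPD1 matches lie inside the GENCODE gene of HSPE1 but upstream of its RefSeq start. They are just outside the window of that start, which begins at chr2:197500129.

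Among the matrix chaperones, the lid of the chaperonin was lower in the library labelled with Dox while its chamber was not. HSPD1, which encodes HSP60 (ENSG00000144381.16, chr2:197486581-197516737, minus strand), had 37823 counts and 481 FPKM without Dox and 40590 counts and 504 FPKM with Dox. Its log2 ratio was 0.07, and it was the most abundant of the 10 genes in both libraries. HSPE1, which encodes HSP10 (ENSG00000115541.10, chr2:197499994-197503457, plus strand), had 9262 counts and 459 FPKM without Dox and 3586 counts and 167 FPKM with Dox. HSPE1 was 2.74-fold lower, with a log2 ratio of -1.46. Its log2 count ratio of -1.45 had an exact 95% interval of -1.51 to -1.40, which here and below covers counting error only. Only 2.60% of all genes tested had a lower ratio than HSPE1.

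The levels of HSPD1 and HSPE1, per length, were nearly equal without Dox and apart with it: HSPD1 over HSPE1 was 1.05 without and 3.01 with Dox, in FPKM. Because both genes come from the same libraries, a scaling factor of a library cancels in this difference between their log2 ratios, 1.52 on FPKM. The difference still depends on the measure, since the effective length used for FPKM was 1712.42 bases without and 1652.25 bases with Dox for HSPD1. On counts over the library totals the log2 ratios of HSPD1 and HSPE1 were 0.02 and -1.45. The strand setting of the counting is not given in the sources used here, and without it reads from their overlapping exons cannot be assigned to either gene. Near-identical copies matter for both genes as well. GENCODE annotates 17 pseudogene or readthrough genes for HSPD1, of which 4 were listed with 8 counts in sum without and 1 with Dox, and 27 for HSPE1, of which 1 was listed, the readthrough gene HSPE1-MOB4, with 62.18 and 109.13 counts.

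HSPA9, the mitochondrial HSP70 and motor of import (ENSG00000113013.13, chr5:138553756-138575724, minus strand), had 36557 counts without and 46418 with Dox. Its level was 276 FPKM and 328 FPKM, with a log2 ratio of 0.25. That lay close to the median of all genes, with 55.0% of them below it. Of the 3 matrix chaperones, then, 1 was past 2-fold.

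The matrix proteases differed among themselves, with the gene of the Lon protease higher and both CLPXP genes within 2-fold. LONP1, the ATP-dependent Lon protease (ENSG00000196365.11, chr19:5691834-5720572, minus strand), had 7134 counts and 60.48 FPKM without Dox and 21128 counts and 168.59 FPKM with Dox. It was 2.78-fold higher, with a log2 ratio of 1.48 and a counting interval of 1.44 to 1.52 on the counts. LONP1 exceeded 90.9% of all genes tested. It moved from the 6th to the 3rd most abundant of the 10 genes.

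CLPP, the proteolytic chamber of CLPXP (ENSG00000125656.9, chr19:6361452-6368910, plus strand), had 3853 counts and 114.07 FPKM without Dox and 3207 counts and 93.3 FPKM with Dox. Its log2 ratio was -0.29. CLPX, the unfoldase that feeds CLPP (ENSG00000166855.9, chr15:65148219-65185342, minus strand), had 4172 counts and 53.9 FPKM without Dox and 4282 counts and 54.23 FPKM with Dox, a log2 ratio of 0.01. The interval of its count ratio, from -0.11 to 0.01, held 0 when the counts were taken over the library totals. With TMM factors the log2 ratio of CLPX was -0.26, so its place relative to 0 depended on the scaling. LONP1 stood at 0.530 times the FPKM of CLPP without Dox and 1.81 times with Dox.

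Of the inner membrane proteases, OMA1 was higher without reaching 2-fold and YME1L1 was level. OMA1, the stress-activated protease that cleaves OPA1 and DELE1 (ENSG00000162600.11, chr1:58415384-58546802, minus strand), was the least abundant of the 8 chaperone and protease genes. It had 733 counts and 13.13 FPKM without Dox and 1252 counts and 22.59 FPKM with Dox. Its log2 ratio was 0.78, a 1.72-fold difference, and 77.4% of all genes tested lay below it.

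YME1L1, the ATP-dependent protease that faces the intermembrane space (ENSG00000136758.18, chr10:27110112-27155266, minus strand), had 15097 counts and 129.35 FPKM without Dox and 16732 counts and 120.72 FPKM with Dox. Its log2 ratio was -0.10 on FPKM and 0.06 on counts. The signs differ because the effective length used for FPKM was 2541.74 bases in 1 library and 2844.47 bases in the other.

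**Figure D2:**
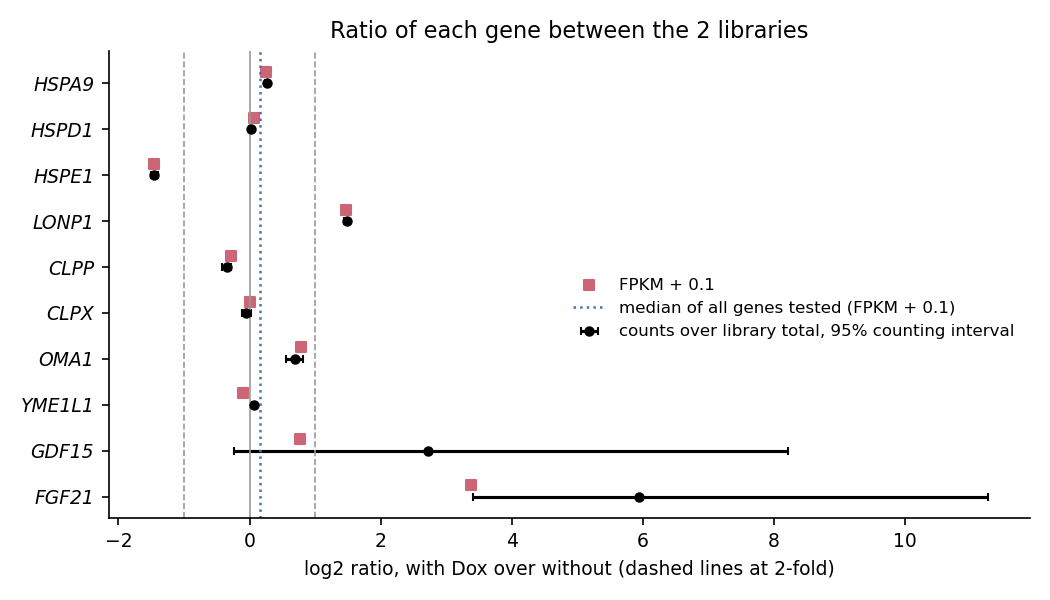
Log2 ratio of each gene, library labelled with Dox over library without, from FPKM + 0.1 (squares) and from counts over the library total (circles, bars are exact 95% counting intervals). The intervals of LONP1 and HSPE1 lie beyond the dashed lines at 2-fold, that of GDF15 spans 0, and that of FGF21 starts at 3.41.

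The mitokines were scarce, and most FGF21 counts were in the library labelled with Dox. FGF21, an endocrine fibroblast growth factor (ENSG00000105550.9, chr19:48755559-48758333, plus strand), had 1 count and 0.03 FPKM without Dox and 65 counts and 1.25 FPKM with Dox. The count ratio over the library totals was 61.3, with an exact 95% interval of 10.6 to 2456. The 1 count without Dox is under the 3 counts taken as the limit of detection. Its log2 ratio on FPKM + 0.1 was 3.38, and 98.6% of all genes tested lay below it. The pseudocount shrinks that value, which was 1.13 with a pseudocount of 1 FPKM. FGF21 passed the 1 FPKM filter only through the library in which it was high. Even there it was the least abundant gene past that filter among the 10, at 1.25 FPKM against 22.59 FPKM for OMA1.

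The length that the deposited tables gave FGF21 also differed between the libraries, from 893 bases without Dox to 1312 bases with Dox. These are the lengths of its transcripts FGF21-201 and FGF21-202. With 1 count in the library without Dox, no comparison of transcripts was possible.

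GDF15, a secreted member of the TGF-beta superfamily (ENSG00000130513.6, chr19:18374731-18389176, plus strand), had 1 count and 0.07 FPKM without Dox and 7 counts and 0.19 FPKM with Dox. It stayed under 1 FPKM in both libraries and was not tested. Its count ratio over the library totals was 6.60, with an exact 95% interval of 0.847 to 297 that spans 1, so a difference in GDF15 was not detectable at this depth. The log2 ratio was 2.72 on counts and 0.77 on FPKM, and the effective length went from 319.08 to 764.52 bases between the libraries.

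The receptors of both mitokines were scarce too. GFRAL, the receptor of GDF15, had 0 counts in both libraries, under the 3 counts taken as the limit of detection. Both mitokines were under that limit without Dox as well. KLB, the co-receptor that FGF21 needs, had 37 counts without and 11 with Dox (0.14 and 0.04 FPKM). Only FGFR1 (2.06 and 2.84 FPKM) and FGFR4 (3.8 and 3.37 FPKM) of 7 receptor genes reached 1 FPKM, and neither was past 2-fold.

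HSPE1 and LONP1 lay near opposite ends of the matrix genes. Among 356 genes that the deposited annotation places in the mitochondrial matrix and that reached 10 FPKM in 1 library, HSPE1 ranked 2 from the lowest ratio and LONP1 ranked 13 from the highest. HSPA9 ranked 70, HSPD1 100, CLPX 119 and CLPP 197 from the highest. Of 425 matrix genes tested without that level limit, 34 were past 2-fold higher and 35 lower, with a median of -0.14. Over all genes tested, 17.0% were higher and 6.41% lower, with a median of 0.15. The counts of each list below are to be read beside these same shares. The level limit was chosen after the values were seen.

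The partners of the chaperones differed among themselves. Of 12 other mitochondrial chaperones and co-chaperones tested, 0 were past 2-fold higher and 2 were lower, with a median log2 ratio of -0.32. TRAP1, the mitochondrial HSP90, was lower at 69.76 FPKM with and 164.79 FPKM without Dox (-1.24). GRPEL1, a nucleotide exchange factor of HSPA9, was lower at 27.71 FPKM with and 61.07 FPKM without Dox (-1.14), but was within 2-fold on counts over the library total. Its paralogue GRPEL2 had 25.03 FPKM with and 14.3 FPKM without Dox (0.80), and DNLZ, which keeps HSPA9 soluble, had a ratio of -0.92, past 2-fold with TMM factors. HSPA9 over GRPEL1 went from 4.52 to 11.8 in FPKM.

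The other proteases were mostly within 2-fold, like CLPP, CLPX and YME1L1. Of 14 tested, 1 was higher and 1 lower, with a median of 0.16. ATP23, a mitochondrial metalloprotease, had 5.46 FPKM without and 15.16 FPKM with Dox (1.46). PMPCA, a subunit of the peptidase that removes import signals, had 119.56 FPKM without and 46.9 FPKM with Dox (-1.35), and its partner PMPCB was not past 2-fold, so that PMPCA over PMPCB went from 1.77 to 0.567. LACTB (0.79) and IMMP2L (0.72) were within 2-fold.

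All 6 scaffold genes of the inner membrane, where OMA1 and YME1L1 sit, had ratios below 0 (5 of 6 on TPM), and 1 of them was past 2-fold (median -0.45). That gene was PHB, a prohibitin subunit, at 169.4 FPKM without and 51.72 FPKM with Dox (-1.71). Its partner PHB2 had a ratio of -0.39, and OPA1, the substrate of OMA1 and YME1L1, one of -0.51, from 64.2 to 45.08 FPKM.

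Of 16 genes of the import machinery that delivers proteins to HSPA9, 0 were past 2-fold higher and 2 lower, with a median of -0.47. These were the outer membrane channel TOMM40 (155.88 to 66.91 FPKM, -1.22) and the receptor TOMM22 (114.12 to 53.49 FPKM, -1.09), the latter within 2-fold on TPM. TIMM44, which anchors HSPA9 at the inner membrane channel, differed the other way at 88.78 and 175.76 FPKM (0.98), and on TPM it was past 2-fold. The channel subunit TIMM23 had a ratio of -0.90, past 2-fold with TMM factors.

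**Figure D3:**
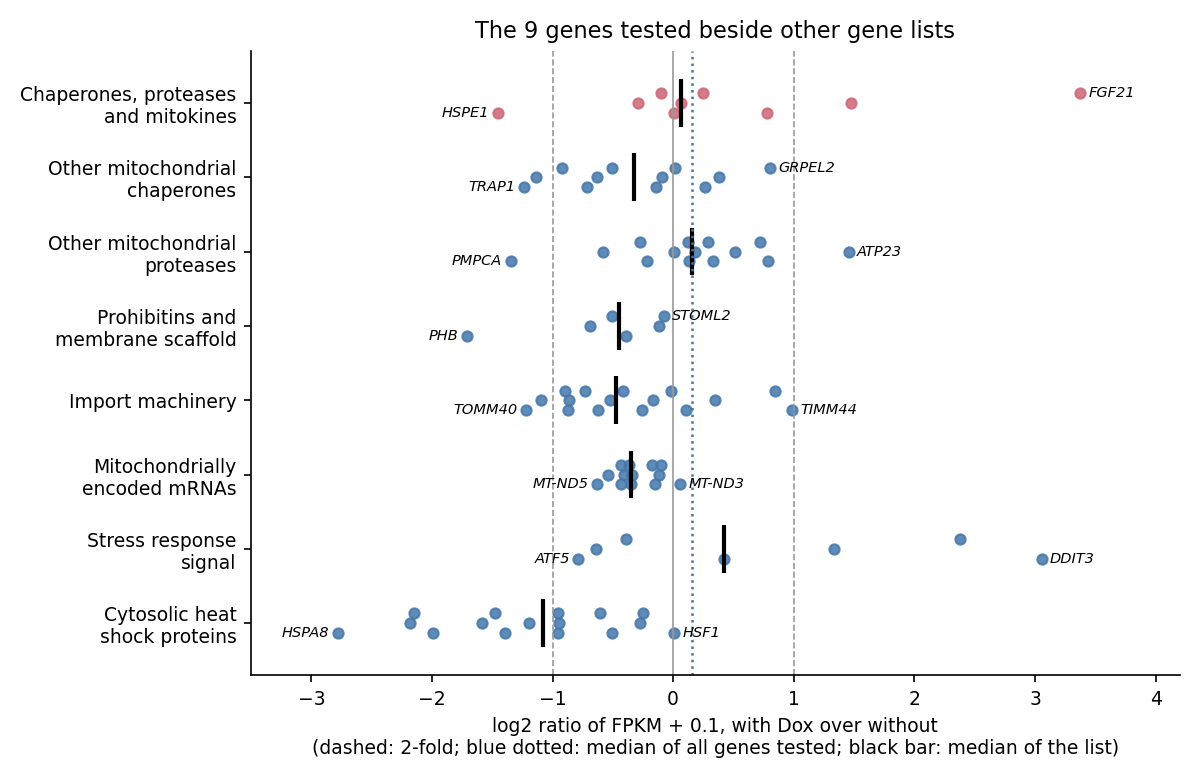
Log2 ratio of FPKM + 0.1 for each gene tested, library labelled with Dox over library without, by list, with black bars at the list medians, the blue dotted line at the median of all genes tested and dashed lines at 2-fold. The stress signal genes reach 3.05, next to FGF21 at 3.38, while the cytosolic heat shock proteins, as a list, lie lowest.

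Of the stress transcription factors, ATF4, which is known to act on the FGF21 gene, DDIT3 and CEBPB were higher. Of 7 genes listed for the signal from mitochondria to the integrated stress response, 3 were past 2-fold higher and 0 lower, with a median of 0.42. Over all genes tested, 17.0% were higher and 6.41% lower. Whether the 3 higher genes answered a signal from mitochondria or another stress was not tested. DDIT3 (CHOP) had 8.69 FPKM without and 72.9 FPKM with Dox (3.05). CEBPB had 3.62 and 19.24 FPKM (2.38), and ATF4, the effector of the response, had 406.22 and 1026.75 FPKM (1.34). The upstream genes were within 2-fold. EIF2AK1, the kinase that receives the signal, had 74.29 and 99.77 FPKM (0.42). KIAA0141, now named DELE1, the substrate of OMA1 that activates it, had 61.83 and 47.22 FPKM (-0.39), and EIF2S1, the factor it phosphorylates, had 231.88 and 149.1 FPKM (-0.64). ATF5, linked to the mitochondrial unfolded protein response, had 33.51 and 19.4 FPKM (-0.79), and with TMM factors it was past 2-fold lower.

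The mRNAs made inside mitochondria were within 2-fold, most of them with ratios below 0. Of 13 mitochondrially encoded mRNAs, 0 were past 2-fold, 12 had ratios below 0 (all 13 with TMM factors), and the median was -0.35, from -0.63 for MT-ND5 to 0.06 for MT-ND3. Genes of the mitochondrial genome took 6.23% of all counts without and 5.05% with Dox. The 10 genes described here took 0.25% and 0.28%.

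The cytosolic heat shock proteins, whose genes are known to be driven by heat shock factors as those of HSPD1 and HSPE1 are, were lower or within 2-fold. Of 16 tested, HSF1 among them, 0 were past 2-fold higher and 8 were lower, with a median of -1.08. Of all genes tested, 6.41% were lower. On counts over the library total 10 of the 16 were lower, and with TMM factors 11. The constitutive HSPA8 had 2507 FPKM without and 364 FPKM with Dox (-2.78), and HSPB1 (-2.18), FKBP4 (-2.15) and HSPA1A (-2.00) followed. HSF1, which is itself on the list and drives its other genes, had a ratio of 0.01. On FPKM, HSPE1, at -1.46, lay on the same side as this list, and HSPD1, at 0.07, did not. The side of HSPD1 depended on the scaling, with a ratio of -0.19 with TMM factors. Relative to the median of all genes tested, HSPD1 stood at -0.16 to -0.07.

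**Figure D4:**
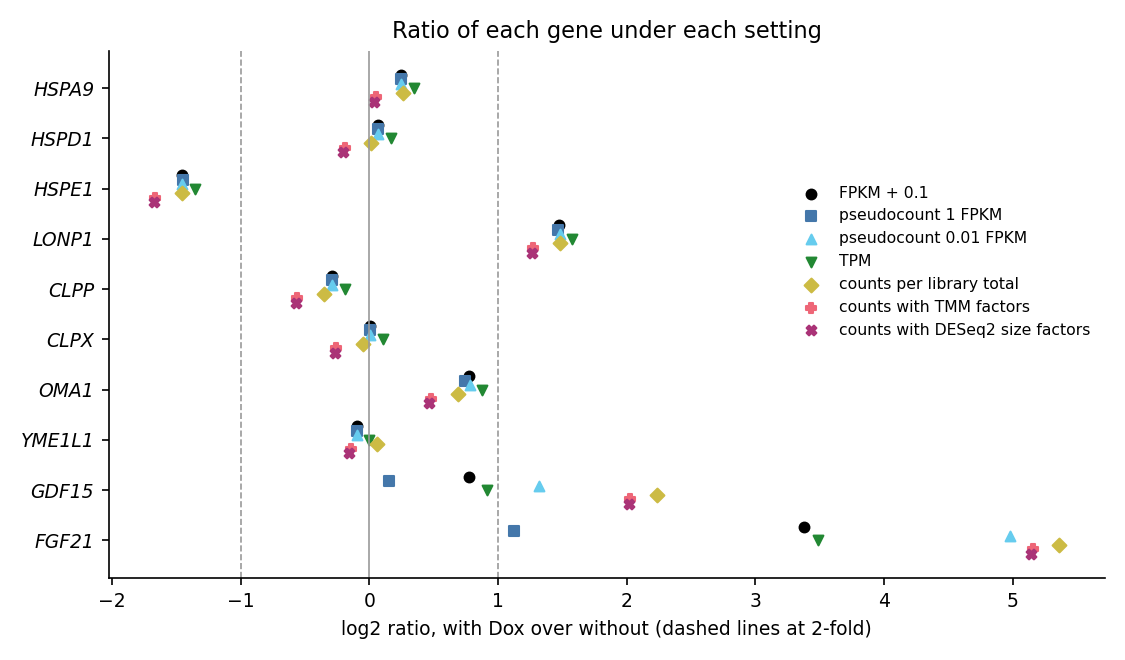
Log2 ratio of each gene under 7 ways of computing it (FPKM with 3 pseudocounts, TPM, and counts scaled by library total, TMM or DESeq2 size factors), with dashed lines at 2-fold. HSPE1, LONP1 and FGF21 are past 2-fold under all of them, and GDF15 and FGF21 spread most.

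Relative to the median of all genes tested under each scaling, HSPE1 stood at -1.63 to -1.59, LONP1 at 1.31 to 1.33, and OMA1 at 0.51 to 0.63. HSPA9 stood at 0.09 to 0.11, HSPD1 at -0.16 to -0.07, CLPX at -0.22 to -0.13, YME1L1 at -0.25 to -0.11 and CLPP at -0.52 to -0.42. FGF21 ranged from 0.99 to 5.19 and GDF15 from 0.02 to 2.06, each with 1 count without Dox.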

How the data were processed

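Poly(A) RNA was sequenced from 2 libraries, 1 per condition, as read pairs of 150 bases. The authors deposited expected counts per gene, of which 14.5% and 15.4% are not whole, with TPM and FPKM values scaled by effective length. The submitters' processing notes name Bowtie 0.12.2, HISAT2 2.1.0, StringTie 1.3.4d and hg19, with no role for each. Transcript identifiers of all 10 genes were found in GENCODE release 29 (GRCh38), the source of the gene coordinates given here. For HSPA9 the match was not complete, because the longest transcript found had 1796 bases. The deposited length of HSPA9 was 3126.87 bases without Dox.

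The genes, lists and motifs were chosen with earlier results of these data known. Ratios were computed as log2(FPKM + 0.1) over genes that reached 1 FPKM in either library. edgeR, the method of the study, cannot estimate dispersion from 1 library per condition, so its fold threshold of 2 was kept without a p-value. Counting intervals are exact binomial (Clopper-Pearson, 95%) on counts rounded to whole numbers. TMM factors came from edgeR 4.0.16 and size factors from DESeq2 1.42.0 in R 4.3.3, over genes with 10 counts in sum, and a prior of 0.5 counts was added. Python 3.11.15, pandas 2.3.3, numpy 2.4.6, scipy 1.17.1 and matplotlib 3.10.9 served the rest. The code for the ratios and calls was tested on simulated counts that held counting error only. Such counts lack replicate variation, so they cannot show that a call made here would repeat. Named genes were the 10 genes, SRD5A1, all 7 stress signal genes, and of each other list up to 4 genes with the largest absolute ratio and at least 5 FPKM, besides receptors, marker genes and partner genes named after their values were seen. The matrix genes were taken from the deposited annotation after the values were seen. Of 132 listed genes, 130 were in the tables.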

Additional observations from a re-analysis of the deposited data

How the results depend on the processing

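Across the other pseudocounts and scalings, 2 of the 9 genes tested, which leave out GDF15, were past 2-fold higher and 1 lower, as in the main values. At 1.5-fold, 3 of the 9 were higher and 1 lower. The share of all genes past 1.5-fold was not counted. It was at least 24.6% higher and 14.0% lower, the shares above IMMP2L (0.72) and below MT-ND5 (-0.63), which were both past 1.5-fold. The log2 ratio ranged from -1.67 to -1.36 for HSPE1, 1.26 to 1.57 for LONP1, 1.13 to 5.36 for FGF21, 0.47 to 0.87 for OMA1, 0.04 to 0.35 for HSPA9, -0.57 to -0.19 for CLPP, and 0.15 to 2.24 for GDF15, which was past 2-fold under 4 of 7 settings. Signs changed within 2-fold for HSPD1 (-0.20 to 0.16), CLPX (-0.27 to 0.11) and YME1L1 (-0.16 to 0.06). Adding pseudogene and readthrough counts was possible for HSPD1 and HSPE1, the genes with such entries in the tables. The number of all genes past 2-fold higher, 2521, became 4735 with no filter, 1256 at 5 FPKM and 1606 with a pseudocount of 1 FPKM. The number lower, 953, became 1897 with no filter, 603 at 5 FPKM, 1488 with TMM factors and 1513 with DESeq2 size factors. The median of the mitochondrially encoded mRNAs, -0.35, became -0.59 with TMM and -0.60 with DESeq2 factors. The median of the other proteases, 0.16, became -0.01 with TMM factors and -0.02 with DESeq2 factors. The scaling factors moved the median of all genes by -0.19 (TMM) and -0.20 (DESeq2). No paired analysis was possible because each condition has 1 library. Depth limits GDF15 and FGF21, with 1 count each without Dox.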

Other observations

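Among the 356 matrix genes that reached 10 FPKM in 1 library, the 3 with the highest ratios encode metabolic enzymes. The genes and that level limit were chosen after the values were seen. ALDH1L2, the mitochondrial formyltetrahydrofolate dehydrogenase, had 5.37 FPKM without and 71.41 FPKM with Dox, a log2 ratio of 3.71. PCK2, the mitochondrial phosphoenolpyruvate carboxykinase, had 20.67 and 196.52 FPKM (3.24), and GPT2, a mitochondrial alanine transaminase, had 12.91 and 88.61 FPKM (2.77). At the other end, beside HSPE1, lay PDSS1, at 36.22 and 11.91 FPKM (-1.60), and PPIF, cyclophilin D, at 135.84 and 51.2 FPKM (-1.41). PDSS1 is a subunit of the enzyme that makes the coenzyme Q side chain. Without the level limit, the lowest ratio of the 425 matrix genes tested was -1.72. With 1 library per condition, these ratios have no replicate check.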
